A study of Mus musculus with 10 samples.

Results

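Cells sorted for the surface antigen SSEA1 at day 6 of induced reprogramming were compared with the whole culture at day 3. The libraries were chosen by the day in their labels, which gave 2 at day 3 and 2 at day 6, 4 of the 10 in the series. All 4 came from mouse embryonic fibroblasts of C57BL/6 x 129 strain that carry a cassette for Oct4 (Pou5f1), Klf4, Sox2 and Myc (OKSM) in the Col1a1 locus and the transactivator M2rtTA in the Rosa26 locus. Doxycycline switches the cassette on through the transactivator. Both groups grew in ESC medium, which holds LIF, with doxycycline at 1 µg/ml and ascorbic acid at 50 µg/ml. Day 3 cells were unsorted and day 6 cells were sorted, so time and sorting cannot be told apart in any result. Reference levels are given from uninduced fibroblasts of the same genotype (MEF) in MEF medium without doxycycline, from SSEA1-sorted day 9 cells, and from the embryonic stem cell line V6.5 (ESC), grown on irradiated feeder cells, with 2 libraries each. The labels call the 2 libraries of a group biological replicates but do not say how many embryos or cultures they came from. The p-values thus measure the spread between these samples, which may not be that between independent embryos or cultures.

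Reprogramming with these 4 factors is known to begin with the loss of the fibroblast program and a mesenchymal-to-epithelial transition, in which spindle-shaped, matrix-secreting cells gain cadherin-based contacts. Genes of the endogenous pluripotency network follow, the earliest of them well before stable stem cell lines can be made. SSEA1 is the Lewis X carbohydrate, absent from fibroblasts and carried by mouse pluripotent cells, and sorting for it is used to keep the minority of cells on the way to pluripotency.

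The day 3 libraries held 37848659 and 33992865 estimated reads and the day 6 libraries 32888976 and 31856543. Mitochondrially encoded RNA made up 2.47% and 2.54% of the day 3 libraries and 3.07% and 3.15% of those from day 6. The root mean square difference in log2 CPM (read counts scaled to library size, TMM-normalised) was 1.121 between the means of the days. Between single libraries it was 0.489 for the day 3 replicates and 0.5 for the day 6 replicates. Means of 2 libraries carry less noise than single libraries, so these values are not of the same kind. All 4 libraries held Xist, the noncoding RNA of the inactive X chromosome, at 930, 1090, 1317 and 1291 CPM, whereas it averaged 0.766 CPM in MEF and 10.2 CPM in ESC. The Y-linked gene Ddx3y averaged 88.5 CPM in MEF and 26.5 CPM in ESC, against 0.0713 CPM at day 3 and 0.164 CPM at day 6. Both genes thus set the MEF libraries apart from the compared days, which touches levels quoted from MEF but leaves the days alike in both genes. In bulk RNA, fewer cells of a type and less RNA per cell cannot be told apart.

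Between the days, 1867 of 20165 genes (9.26%) rose and 2059 (10.2%) fell, 19.5% in all, by the quasi-likelihood test of edgeR at an adjusted p-value under 0.05 and a log2 fold change of at least 1 in either direction. Across all genes the log2 fold change had a median of 0.03. At least 16-fold changes were fitted for 342 of the higher and 277 of the lower genes. Many of the risers stayed low in level: 1174 of them were under 5 CPM at day 6, and 342 reached 20 CPM. Of the genes that fell, 691 had been at 20 CPM or more at day 3. On log2(TPM + 1), where low genes weigh less, limma called 586 genes higher (2.91%) and 815 lower (4.04%). Without the fold change minimum edgeR called 29.2% higher and 27.3% lower. Counts of called members in the gene lists below stand beside the edgeR shares of 9.26% higher and 10.2% lower. The limma counts in the lists stand beside its own 2.91% and 4.04%.

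**Figure D1:**
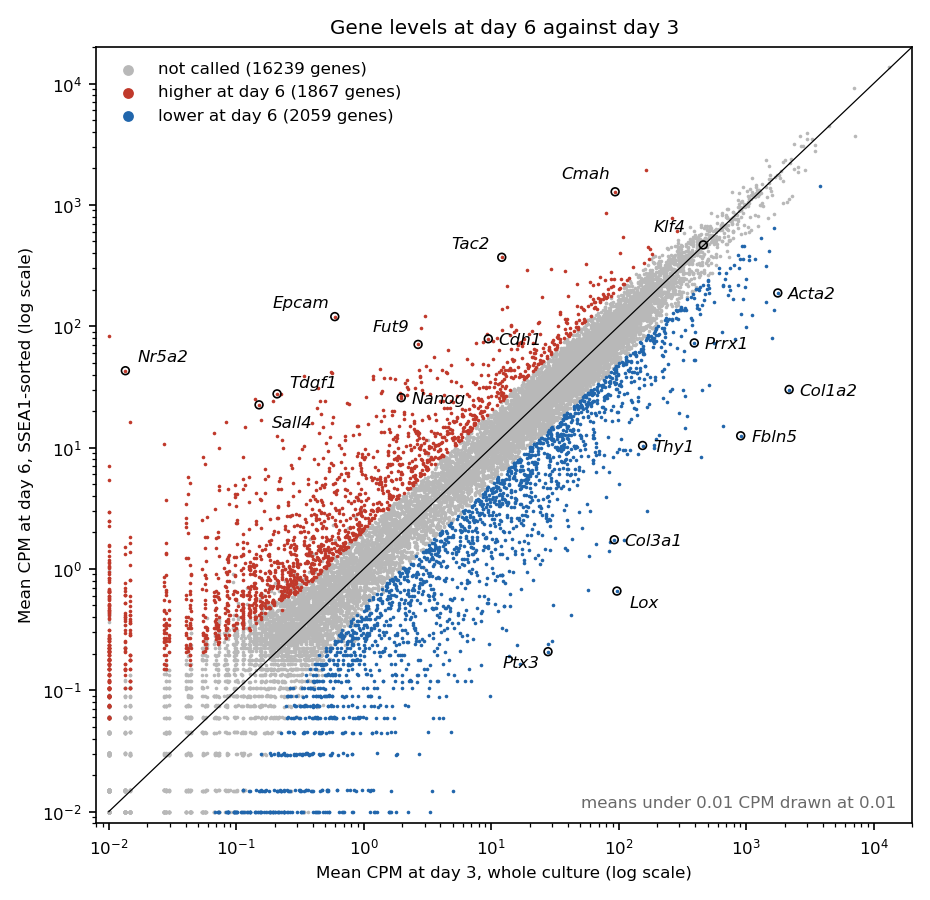
Each point is a gene, with its mean CPM at day 3 (2 libraries, x axis) and at day 6 (2 libraries, y axis), both on log scales, and the diagonal marks equal levels. The 1867 genes called higher lie above the diagonal and extend to Nr5a2 and Epcam, and the 2059 called lower extend to Lox and Ptx3.

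The largest rises among protein-coding genes at 20 CPM or more belonged to pluripotency genes (Nr5a2, Nr0b1, Sall4, Tdgf1), epithelial junction genes (Epcam, Cldn4, Lsr), the neural and muscle lineage factors Gsx1 and Pax7, the sugar-nucleotide transporter family members Slc35d3 and Slc35f2, and Nos1, the neuronal nitric oxide synthase. Lsr, a receptor of tricellular tight junctions, stood at 0.673 and 0.443 CPM at day 3 and at 41.8 and 41.8 CPM at day 6. The largest falls were almost all of secreted or matrix-associated proteins: Lox, Ptx3, C1qtnf3, Svep1, Adamtsl3, Fbln5, Col1a2, Col2a1, Ltbp2 and Serpinf1, with the actin crosslinker Flnc and the fibroblast cadherin Cdh11. Serpinf1, an antiangiogenic serpin, went from 32.1 and 28.8 CPM to 0.441 and 0.575 CPM. Svep1 and Flnc were low in day 6 replicate 1 (0.0588 and 0.441 CPM) relative to replicate 2 (0.423 and 0.907 CPM). Without day 6 replicate 1 the log2 fold change of Svep1 was -6.03, without replicate 2 it was -8.81, and with all libraries it was -6.84. That of Flnc went from -6.40 to -7.01 without day 6 replicate 2.

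To place these changes on the path from fibroblast to stem cell, the genes were sorted by the contrast of ESC with MEF, which shares no library with the comparison of days. Of all genes tested, 25.5% were higher and 20.6% lower in ESC than in MEF, 46.1% together. Among the genes that rose at day 6, 1274 (68.2%) were higher in ESC, 137 (7.34%) were lower and 456 (24.4%) were neither. These classes are set by the contrast and not by level. The genes higher in ESC thus include some under 1 CPM there, such as Tac2 (0.162 CPM in MEF and 0.942 CPM in ESC). Among the genes that fell, 1422 (69.1%) were lower in ESC and 172 (8.35%) higher. The 1274 risers were 24.8% of all genes higher in ESC, and the 1422 fallers were 34.3% of all genes lower in ESC. Irradiated feeders are themselves fibroblasts, and ESC libraries held Col1a2 at a mean of 1269 CPM and Thy1 at 161 CPM, against 30.1 and 10.4 CPM at day 6. The part of feeder RNA in the ESC contrast was not tested.

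**Figure D2:**
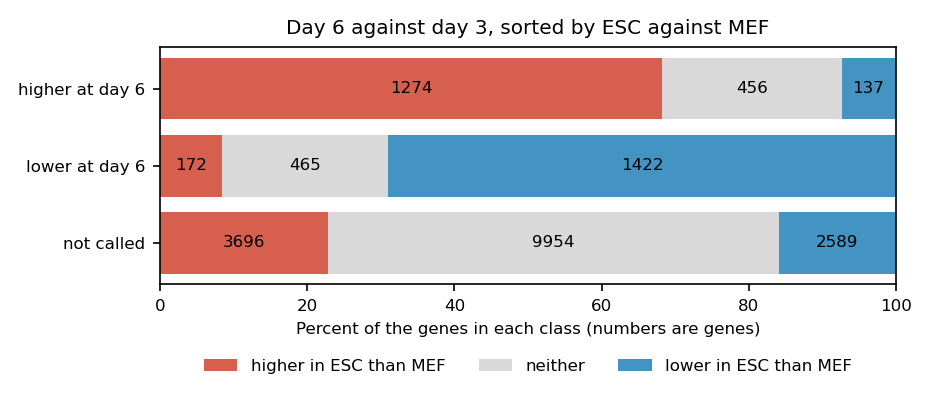
Bars give the percent of genes higher, lower or not called at day 6 against day 3 (rows) that were higher, lower or neither in ESC against MEF (colours), with gene numbers inside. In the rows of risers and fallers the largest blocks are 1274 genes higher in ESC and 1422 lower in ESC.

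The reprogramming factors themselves differed little between the days. Reads from the cassette and from the endogenous genes are counted together here. Sox2 stood at 253 and 262 CPM at day 3 and at 304 and 302 CPM at day 6, Pou5f1 at 224 and 243 against 323 and 296 CPM, and Myc at 276 and 275 against 334 and 325 CPM. Klf4 was at 457 and 464 against 474 and 462 CPM. The largest log2 fold change of the 4 was 0.41 ± 0.05 (SE) for Pou5f1, and none reached the minimum of 1. In MEF, Sox2 and Pou5f1 averaged 3.36 and 2.98 CPM, so both days lay far above uninduced cells.

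Of 12 genes for the synthesis of the SSEA1 glycan, only Fut9 was called (8.33% higher, against 9.26% of all genes), and none fell. Fut9 encodes the fucosyltransferase that adds the terminal fucose of Lewis X (chromosome 4, 25609332 to 25800244, minus strand, GRCm38). It stood at 2.48 and 2.87 CPM at day 3 and at 74.3 and 67.3 CPM at day 6, with no overlap (26.6-fold higher, log2 fold change 4.73 ± 0.10 SE, edgeR adjusted p = 3.4e-14). The sort selects this antigen, so Fut9 is not independent of it. Fut9 averaged 0.12 CPM in MEF and 14.4 CPM in ESC, both below day 6. Fut4, the other enzyme with this activity, was at 2.96 and 2.66 CPM at day 3 and at 2.03 and 1.72 CPM at day 6 and was not called (edgeR adjusted p = 0.053).

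Most core and naive pluripotency regulators rose. Of 20 tested, 14 rose, 2 fell and 4 were not called, and their median log2 fold change was 3.21 (2.69 adjusted for low reads, that is, with genes at 3 or fewer reads on both days left out, genes without reads on 1 day at their bound and genes at 1 to 3 reads on 1 day at their ratio). Nanog, the homeodomain factor of the core network (chromosome 6, 122707489 to 122714633, plus strand), went from 1.35 and 2.6 CPM to 25 and 26.6 CPM (log2 fold change 3.73 ± 0.14 SE, edgeR adjusted p = 2.2e-11). Esrrb, an orphan nuclear receptor that sustains self-renewal, went from 0.162 and 0.148 CPM to 16.6 and 17.1 CPM, 106-fold higher. Tfcp2l1, a factor of the naive state, rose from 1.13 and 1.24 CPM to 38.3 and 35.8 CPM. In each case both day 6 libraries lay far above both day 3 libraries. Nr5a2, an orphan nuclear receptor that binds the Pou5f1 promoter, had 1 read in the day 3 libraries together and 2889 at day 6, a ratio of 3057 with an exact 95% counting interval of 548 to 120779. The log2 fold change of Nr5a2 was 13.50 without day 3 replicate 1, which held that read, and 10.45 without replicate 2. The Nr5a2 values of 49.1 and 36.9 CPM at day 6 exceeded the ESC mean of 35.7 CPM.

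Sall4, a zinc finger regulator of Pou5f1, rose from 0.242 and 0.0591 CPM to 22.5 and 22.4 CPM. Its day 3 replicates differed: the log2 fold change of 7.15 became 8.47 without day 3 replicate 1 and 6.50 without replicate 2. Nr0b1 (Dax1), an X-linked partner of Pou5f1, rose from 0.162 and 0.118 CPM to 24.6 and 25.1 CPM. Tfap2c, shared by naive, germline and trophoblast cells, rose from 1.29 and 1.09 CPM to 39.1 and 38.8 CPM. Not all members followed. Tbx3 fell from 12.2 and 11.8 CPM to 2.94 and 2.0 CPM, although it is high in ESC (88.1 CPM, against 16.3 CPM in MEF). Klf2 fell from 15.8 and 14 CPM to 6.03 and 5.29 CPM. It averaged 122 CPM in ESC but also 168 CPM in MEF, and was not called between them. Stat3, the effector of LIF, had means of 141 and 142 CPM on the days, and Klf5 had 4.78 and 3.31 CPM. Neither was called.

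Late pluripotency and germline-associated markers were split. Of 27 tested, 12 rose (44.4%, against 9.26% of all genes), 15 were not called and none fell. The median log2 fold change was 1.60 (2.01 adjusted for low reads). limma on log2(TPM + 1) called 6. Tdgf1 (Cripto), the Nodal co-receptor, rose from 0.269 and 0.148 CPM to 27.9 and 27.5 CPM, 129-fold (edgeR adjusted p = 5.4e-15). Tdh, the threonine dehydrogenase of mouse stem cells, rose from 13.6 and 13.1 CPM to 215 and 211 CPM and was above its ESC mean of 160 CPM. Utf1, a chromatin-bound pluripotency marker, had 1 read at day 3 and stood at 16.9 and 15.4 CPM at day 6, a ratio of 1147 with a counting interval of 205 to 45344. Its log2 fold change was 8.92 without day 3 replicate 1 and 12.10 without replicate 2. Other members were called at levels far below those of stem cells. Zfp42 (Rex1) rose from 0.0538 and 0.0591 CPM to 0.823 and 0.968 CPM, against 290 CPM in ESC. Dppa5a was at 0.135 and 0.384 CPM at day 3 and 1.15 and 0.968 CPM at day 6, against 1419 CPM in ESC, and DESeq2 and limma did not call it. Its log2 fold change of 2.05 was 1.44 without day 3 replicate 1 and 2.93 without replicate 2. Lin28a had 1 read at day 3 and stood at 0.882 and 0.514 CPM at day 6 (ratio 49.7, counting interval 8.5 to 2005), and its log2 fold change ran from 4.51 without day 3 replicate 2 to 7.57 without replicate 1. Dnmt3l, the cofactor of de novo methylation, was at 0.0808 and 0.0296 CPM at day 3 and 0.0882 and 0 CPM at day 6, a difference that could not be told from 0 at this depth, against 352 CPM in ESC (4 reads at day 3 and 3 at day 6).

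**Figure D3:**
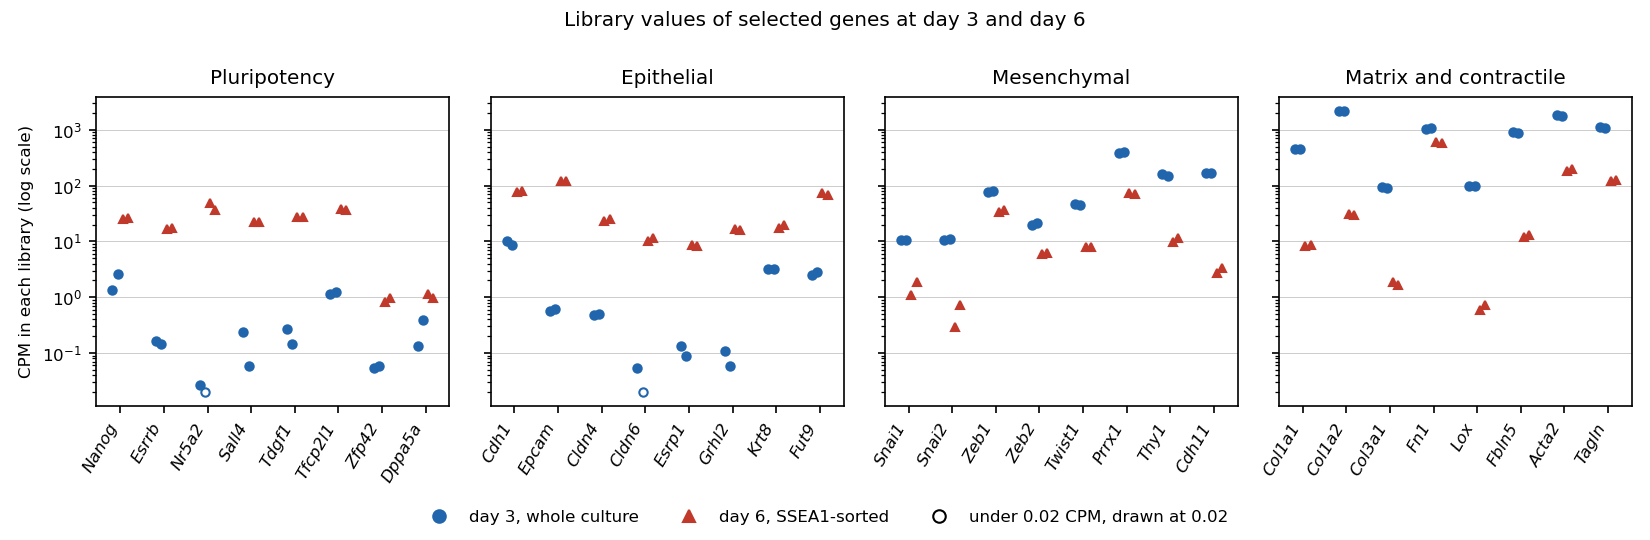
CPM on a log axis in each day 3 library (circles) and each day 6 library (triangles) for genes of 4 groups. Replicates lie apart for some low genes, such as Sall4 at day 3 (0.242 and 0.0591 CPM) and Snai2 at day 6 (0.294 and 0.726 CPM). The days do not overlap for any gene drawn, with the smallest step at Fn1 (log2 fold change -0.80) and the largest at Nr5a2.

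Epithelial genes made up the other large rising group. Of 37 adhesion and junction genes tested, 25 rose and 2 fell, among them the connexin Gjb5, with a median log2 fold change of 2.99. Of 16 epithelial transcription and splicing factors tested out of 18 listed, 11 rose and none fell (median 2.44, or 2.57 adjusted for low reads). limma on log2(TPM + 1) called 18 adhesion genes and 6 factors. Snai1, Zeb1 and Zeb2, repressors of epithelial genes, are known to bind the E-box CACCTG, which reads CAGGTG on the other strand. The 250 bases upstream of the RefSeq start of 4 rising junction genes (GRCm38.p6, from 5′ to 3′ on the gene's strand) are printed because they hold this E-box, shown in capitals.
Epcam (chr17:87635729-87635978, plus strand): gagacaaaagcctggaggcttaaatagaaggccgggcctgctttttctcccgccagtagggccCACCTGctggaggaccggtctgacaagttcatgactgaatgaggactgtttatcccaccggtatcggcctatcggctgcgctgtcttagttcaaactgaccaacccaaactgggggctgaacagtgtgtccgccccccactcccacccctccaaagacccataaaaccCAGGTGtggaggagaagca
Cldn4 (chr5:134946935-134947184, minus strand): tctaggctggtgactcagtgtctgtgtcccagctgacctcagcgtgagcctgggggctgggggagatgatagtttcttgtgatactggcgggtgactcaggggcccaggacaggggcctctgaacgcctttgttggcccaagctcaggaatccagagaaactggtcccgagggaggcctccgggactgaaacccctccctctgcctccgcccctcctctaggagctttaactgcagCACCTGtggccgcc
Cldn6 (chr17:23679115-23679364, plus strand): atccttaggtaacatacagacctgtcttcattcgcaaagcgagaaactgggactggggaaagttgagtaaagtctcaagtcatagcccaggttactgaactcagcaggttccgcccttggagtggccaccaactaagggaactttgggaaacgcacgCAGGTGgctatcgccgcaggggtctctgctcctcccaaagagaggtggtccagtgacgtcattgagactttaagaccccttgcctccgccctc
Cldn7 (chr11:69965171-69965420, plus strand): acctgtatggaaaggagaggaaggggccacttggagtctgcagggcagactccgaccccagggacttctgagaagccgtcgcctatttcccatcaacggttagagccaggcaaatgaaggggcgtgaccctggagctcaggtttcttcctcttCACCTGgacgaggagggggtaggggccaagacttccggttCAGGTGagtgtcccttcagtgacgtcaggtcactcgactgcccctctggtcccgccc

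Counted from the start, with -1 as the last base before it, Epcam holds the E-box at -187 and -19, Cldn4 at -14, Cldn6 at -93, and the downstream of 2 listed Cldn7 starts at -97 and -57. The window of the upstream Cldn7 start (chr11:69964529-69964778) holds none. The motif was chosen after expression had been seen, and a match is a description and not a binding site. Over the windows of RefSeq promoters, from 250 bases before to 50 after the start, CACCTG on either strand was found in 413 of 1449 promoters of genes that rose (28.5%), in 17.8% of 1812 promoters of genes that fell and in 18.5% of 12698 promoters of genes not called. Over all 32851 promoters the share was 20.2%. Of other E-box letterings, CAGCTG was in 17.7%, 19.5% and 15.5% of the same 3 groups, and CACGTG in 8.97%, 6.51% and 9.69%. The 3 letterings cannot occupy the same site, and both strands were searched. CAGCTG and CACGTG read alike on both strands, so the second strand adds matches only for CACCTG. Shares and spreads of the letterings are therefore not of the same kind. A gene can have several listed promoters or none, and the 1449 promoters belong to 1136 genes that rose. Median GC content was 59%, 59% and 60%. Among the epithelial adhesion list, 1 of 25 promoters held CAGCTG (4%), 5 held CACGTG (20%, against 7.15% of all promoters) and 20 held CACCTG (80%). The 25 promoters belong to 20 of the 37 listed genes, and Cdh1 had none listed. Of the 16 genes in this list that rose and had a listed promoter, 14 held CACCTG in at least 1 promoter. That count is per gene and was not made for other genes. Among collagens and structural matrix genes 3 of 36 promoters held CACCTG (8.33%). Among the core and naive pluripotency regulators, which also rose in most cases, it was in 5 of 22 (22.7%), close to the share of all promoters.

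Epcam, the epithelial cell adhesion molecule (chromosome 17, 87635979 to 87651129, plus strand), rose from 0.565 and 0.621 CPM to 121 and 120 CPM, 202-fold (log2 fold change 7.66 ± 0.08 SE, edgeR adjusted p = 6e-17). Epcam averaged 0.196 CPM in MEF, 449 CPM at day 9 and 144 CPM in ESC. Cdh1, E-cadherin of adherens junctions (chromosome 8, 106603351 to 106670246, plus strand), had already left its MEF mean of 0.37 CPM at day 3, with 10.3 and 8.69 CPM, and reached 77.4 and 80.2 CPM at day 6 (8.28-fold, edgeR adjusted p = 9.1e-14). Tight junction claudins were near silent at day 3. Cldn4 rose from 0.485 and 0.502 CPM to 23.3 and 25.1 CPM. Cldn6 had 2 reads at day 3 and stood at 10.2 and 11.5 CPM at day 6 (ratio 385, counting interval 106 to 3182), with log2 fold changes of 7.55 without day 3 replicate 2 and 11.51 without replicate 1. Cldn7 had 3 reads at day 3 and stood at 5.91 and 5.5 CPM at day 6 (ratio 135, counting interval 45.9 to 658). Ap1m2, the adaptor subunit for basolateral sorting in epithelia, rose from 0.0269 and 0.118 CPM to 10.3 and 9.68 CPM, and its log2 fold change of 7.08 was 6.35 without day 3 replicate 1 and 8.34 without replicate 2. Desmosome, basement membrane and some junction genes were already on and not called, among them Jup (415 and 387 CPM), Itgb4 (315 and 374 CPM) and Dsp (30.8 and 44.6 CPM as means of the days).

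Regulators of the epithelial state rose as well. Grhl2, a grainyhead factor that activates Cdh1 and claudin genes, went from 0.108 and 0.0591 CPM to 16.6 and 15.7 CPM, 183-fold. Esrp1, the epithelial splicing regulator, went from 0.135 and 0.0887 CPM to 8.53 and 8.26 CPM, 72.1-fold. The edgeR adjusted p-values were 2.1e-13 and 1.8e-12, and the days did not overlap for either. Tfap2a, a factor of surface ectoderm, rose from 2.02 and 1.18 CPM to 14 and 13 CPM. Ovol1, a repressor of Zeb1, was at 0.377 and 0.207 CPM and then 0.764 and 0.756 CPM; it was called by edgeR (log2 fold change 1.36, adjusted p = 0.012) but not without day 3 replicate 2 (0.99) and not by DESeq2 or limma. Ehf, an epithelial Ets factor, was already at a mean of 108 CPM at day 3 and was not called at 182 CPM. Of 10 keratins tested out of 11, 5 rose and 1 fell, and 4 of the 5 risers stayed under 1 CPM at day 6. Krt8, of simple epithelia, rose from 3.23 and 3.19 CPM to 17.1 and 19.3 CPM, whereas its partner Krt18 had means of 2.77 and 3.38 CPM and was not called. limma on log2(TPM + 1) called 1 keratin.

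**Figure D4:**
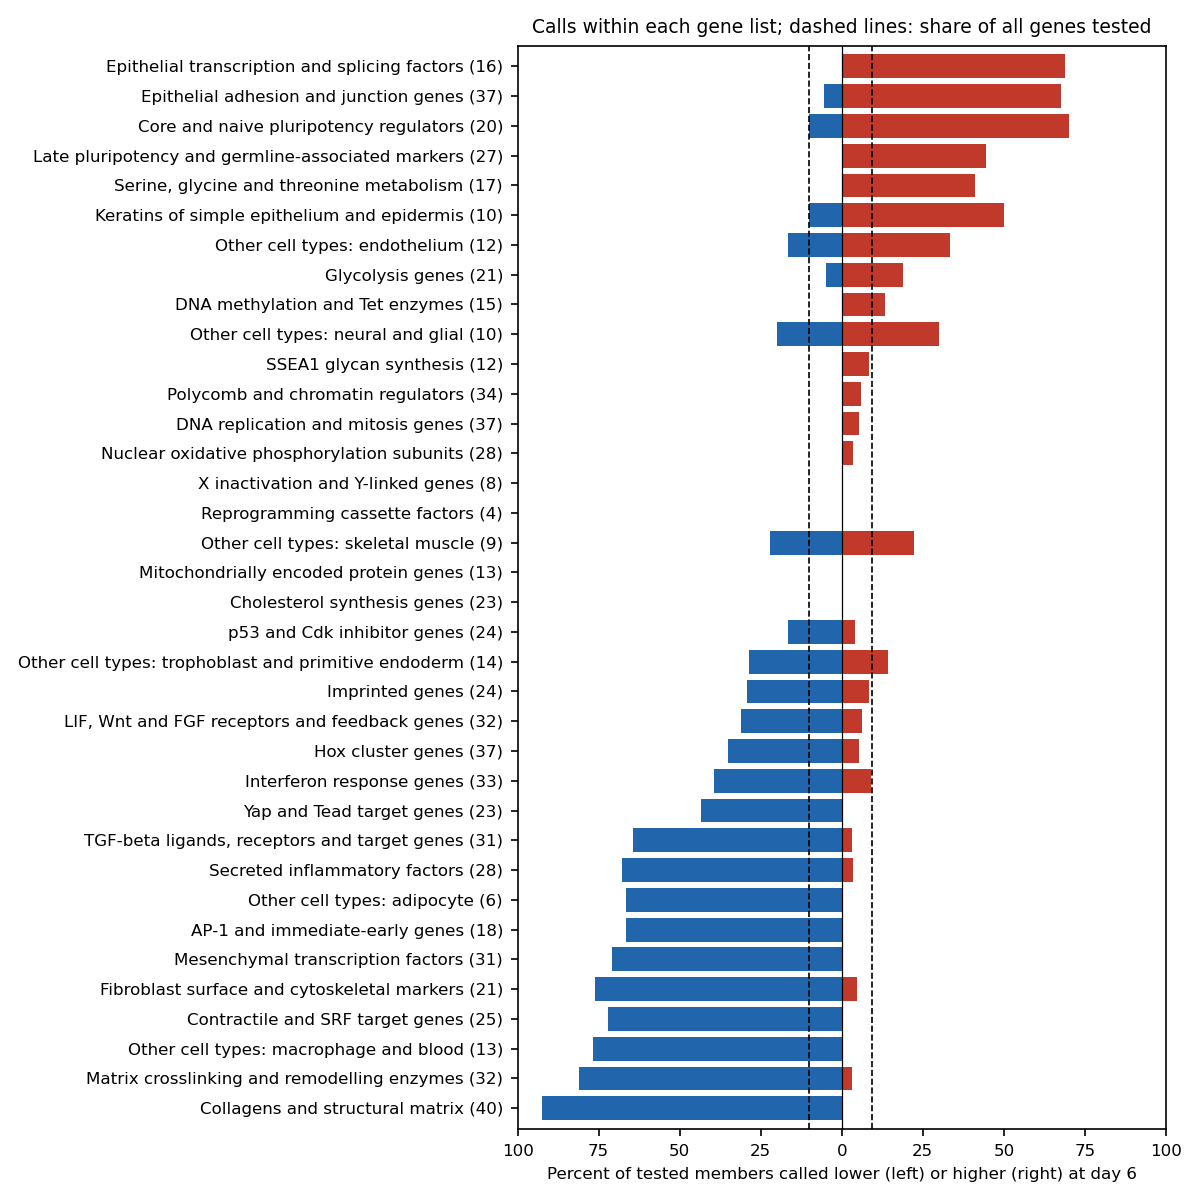
Percent of tested members of each of 36 gene lists called higher (right) or lower (left) at day 6, with the number tested in brackets. Dashed lines mark the shares of all genes tested, 9.26% higher and 10.2% lower; collagens and structural matrix reach 92.5% lower and core and naive pluripotency regulators 70% higher.

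Mesenchymal transcription factors fell. Of 31 tested out of 32 listed, 22 fell, 9 were not called and none rose, and the median log2 fold change was -2.55. limma on log2(TPM + 1) called 10 of them. Snai1, a repressor of E-cadherin (chromosome 2, 167538195 to 167542814, plus strand), fell from 10.7 and 10.7 CPM to 1.09 and 1.84 CPM (7.3 times lower, edgeR adjusted p = 8.7e-10). Its relative Snai2 fell from 10.4 and 11.2 CPM to 0.294 and 0.726 CPM, a log2 fold change of -4.40 that was -3.90 without day 6 replicate 1 and -5.19 without replicate 2. Zeb2 fell from 19.3 and 21.2 CPM to 6.0 and 6.17 CPM. Zeb1 changed least of the EMT repressors, from 75.8 and 79.2 CPM to 34.2 and 37.2 CPM, a log2 fold change of -1.12 ± 0.06 (SE) that limma on TPM put at -0.83, under the minimum. Twist1, which drives mesenchymal fate in the embryo, fell from 47.1 and 45.4 CPM to 7.82 and 7.89 CPM. Prrx1, a limb and connective tissue homeobox factor, fell from 380 and 403 CPM to 74.4 and 71.1 CPM, still a mean TPM of 9.51. Prrx2 fell further, from 41.6 and 37.5 CPM to 1.23 and 1.6 CPM. Nfix, Nfib, Tbx15 and Tbx18, also fibroblast factors, were not called, with log2 fold changes of -0.32, 0.37, 0.22 and -0.11.

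Fibroblast surface and cytoskeletal markers, which stood for the starting cell type, fell in 16 of 21 cases. Thy1, the glycoprotein lost early in reprogramming, fell from 162 and 146 CPM to 9.55 and 11.3 CPM (14.8 times lower, edgeR adjusted p = 5.4e-14). Cdh11, the mesenchymal cadherin, fell from 165 and 169 CPM to 2.7 and 3.36 CPM, and Pdgfrb, a receptor of stromal cells, from 80.3 and 79.4 CPM to 3.73 and 4.05 CPM. Cdh2, N-cadherin, fell only from 43.0 and 46.2 CPM to 12.7 and 13.2 CPM. A single list member rose: Nt5e (CD73), a surface 5′-nucleotidase, went from 17.8 and 18.6 CPM to 78.5 and 77.6 CPM (4.29-fold). Ly6a (Sca-1) had means of 414 and 479 CPM and was not called.

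The extracellular matrix gave the most uniform change. Of 40 collagens and structural matrix genes tested, 37 fell, none rose and 3 (Fn1, Col4a1 and Fbln1) were not called, with a median log2 fold change of -3.39. Col1a2, the alpha-2 chain of type I collagen (chromosome 6, 4504814 to 4541544, plus strand), fell from 2178 and 2170 CPM to 30.9 and 29.4 CPM (72.1 times lower, log2 fold change -6.17 ± 0.05 SE, edgeR adjusted p = 5.4e-18). Per length, Col1a2 went from a mean of 208 TPM to 2.91 TPM while Epcam went from 0.155 to 31.1 TPM, so the order of the genes turned between the days. Col1a1 fell from 444 and 445 CPM to 8.23 and 8.47 CPM. The cassette sits in the Col1a1 locus, and how that bears on Col1a1 reads was not tested. Col3a1 fell from 94.1 and 90.8 CPM to 1.85 and 1.63 CPM, and Fbln5, which assembles elastic fibres, from 922 and 890 CPM to 12.2 and 12.8 CPM. Col2a1, a cartilage collagen, averaged 40.3 CPM in MEF, stood at 110 and 109 CPM at day 3 and fell to 1.73 and 1.75 CPM. The 3 uncalled genes differed in size: Fbln1 had a log2 fold change of -0.08, Col4a1 of -0.90, and fibronectin, Fn1, went from 1023 and 1064 CPM to 613 and 585 CPM (log2 fold change -0.80 ± 0.05 SE).

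Of 32 enzymes of matrix crosslinking and remodelling tested out of 33, 26 fell and 1 rose (Mmp10, a protease with no read at day 3 and under 1 CPM at day 6, not called without day 3 replicate 1, day 3 replicate 2 or day 6 replicate 2). Lox, lysyl oxidase, which crosslinks collagen and elastin, gave the largest fall of the comparison among genes at 20 CPM or more: 97.2 and 96.5 CPM against 0.588 and 0.726 CPM, 147 times lower (edgeR adjusted p = 7.1e-15). The MEF mean of Lox was 2949 CPM. Loxl1 fell from 41.9 and 44.0 CPM to 1.59 and 1.94 CPM and Loxl2 from 191 and 190 CPM to 10.7 and 10.5 CPM. Timp1, a protease inhibitor, had means of 106 and 106 CPM on the days, and the lysyl hydroxylases Plod1 and Plod2 both had log2 fold changes of 0.03.

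Contractile genes and serum response factor (SRF) targets fell in 18 of 25 cases, with a median log2 fold change of -1.62 (-1.58 adjusted for low reads), and none rose. Acta2, smooth muscle actin, fell from 1805 and 1737 CPM to 182 and 194 CPM (9.4 times lower) and Tagln, an actin-bundling protein, from 1130 and 1074 CPM to 118 and 127 CPM. Cnn1, calponin, fell from 7.57 and 6.92 CPM to 0.47 and 0.302 CPM. Srf itself and its coactivators Mkl1, Mkl2 and Myocd were not called. The non-muscle genes Myh9 and Flna had log2 fold changes of -0.95 and -0.97, just short of the minimum.

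Among TGF-beta ligands, receptors and targets, 20 of 31 fell and 1 (Bmp7) rose, with a median log2 fold change of -1.67. TGF-beta signalling is known to hold cells in the mesenchymal state. Ltbp2, a latent TGF-beta binding protein of microfibrils, fell from 85.5 and 83.8 CPM to 1.26 and 1.54 CPM, and Fst, the activin antagonist follistatin, from 59.8 and 57.1 CPM to 0.941 and 1.63 CPM. The signal transducers moved less: Smad2, Smad3, Smad4, Tgfbr1 and Tgfbr2 were not called, with log2 fold changes from -0.58 (Tgfbr1) to 0.00 (Smad4).

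AP-1 and immediate-early genes fell in 12 of 18 cases with none higher (median -1.45, or -1.42 adjusted for low reads). AP-1 factors are known to bind enhancers of somatic cells, and immediate-early genes respond to acute signals. Jun fell from 530 and 492 CPM to 190 and 186 CPM (log2 fold change -1.44 ± 0.05 SE), Egr2 from 40.6 and 34.2 CPM to 3.15 and 2.96 CPM, and Atf3 from 42.8 and 35.0 CPM to 3.35 and 3.39 CPM. Dusp1, a phosphatase that ends MAP kinase signals, fell from 337 and 308 CPM to 60.7 and 63.3 CPM. Fosl1, at 2.02 and 1.51 CPM and then 1.53 and 0.605 CPM, was not called (log2 fold change -0.72), but was without day 6 replicate 1 (-1.55). Yap and Tead targets fell in 10 of 23 cases (43.5%, against 10.2% of all genes), with a median of -0.70. Ankrd1 was at 13.4 and 12.7 CPM and then 0.323 and 0.302 CPM. Myof was at 204 and 213 CPM and then 12.9 and 12.7 CPM, and F3 at 83.0 and 82.1 CPM and then 12.1 and 12.3 CPM. Yap1 itself had means of 197 and 193 CPM and was not called.

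Secreted inflammatory and growth factors fell in 19 of 28 cases tested out of 34 listed, and 1 (Il33) rose; the median log2 fold change was -1.97 (-1.94 adjusted for low reads). Ptx3, a pentraxin of stromal cells, fell from 29.1 and 26.7 CPM to 0.265 and 0.151 CPM, 131 times lower. Igf1, the insulin-like growth factor, fell from 9.69 and 9.73 CPM to 0.0882 and 0.0907 CPM, and Fgf7, an epithelial mitogen made by stroma, from 16.7 and 17.2 CPM to 0.176 and 0.151 CPM. Interferon response genes fell more often than all genes and rose about as often. Of 33 tested out of 34, 13 fell (39.4%, against 10.2% of all genes) and 3 rose (9.09%, against 9.26%). Their median was -0.92 (-0.90 adjusted for low reads), and limma on log2(TPM + 1) called 4 lower and 2 higher. B2m, the light chain of MHC class I, fell from 143 and 136 CPM to 41.8 and 40.9 CPM and H2-D1 from 105 and 97.4 CPM to 28.0 and 29.6 CPM, though H2 genes have near-identical copies that share reads. Ifit2 fell from 11.7 and 12.5 CPM to 1.5 and 1.18 CPM. Of the 3 risers, a share close to that of all genes, Bst2 (tetherin) went from 60.4 and 58.6 CPM to 226 and 237 CPM. Ddx58 (RIG-I), a sensor of viral RNA, went from 39.3 and 38.2 CPM to 109 and 110 CPM.

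Macrophage and blood markers also fell. Of 13 tested out of 15, 10 fell (76.9%, against 10.2% of all genes) and none rose. The markers summed to 48.9 and 43.4 CPM at day 3 and to 6.76 and 9.47 CPM at day 6. The mean sum was 24.8 CPM in MEF and 113 CPM in ESC. The remaining day 6 signal was mostly Cd68 and Itgam, which were not called. C1qb, a complement subunit made by macrophages, fell from 7.62 and 5.68 CPM to 0.118 and 0.181 CPM, and Lyz2, lysozyme, from 13.5 and 11.9 CPM to 0.47 and 0.514 CPM. On log2(TPM + 1), limma called 6 of the list lower. The haemoglobin genes Hba-a1 and Hbb-bs had no read in any of the 4 libraries. The part of such cells in the falls of secreted and interferon genes was not tested.

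Other cell type lists were smaller, and their counts stand beside shares of 9.26% higher and 10.2% lower over all genes. Of 9 muscle markers 2 rose and 2 fell, of 10 neural markers 3 rose and 2 fell, of 12 endothelial markers 4 rose and 2 fell, and of 6 adipocyte markers 4 fell and none rose. The adipocyte markers summed to 43.7 and 43.6 CPM at day 3 and to 12.1 and 10.5 CPM at day 6, with Cebpa, a factor of fat differentiation, at 24.2 and 23.8 CPM and then 3.23 and 2.66 CPM. The part of such cells in the comparison was not tested. Pax7, a muscle stem cell and neural crest factor, rose from 0.269 and 0.414 CPM to 40.9 and 36.9 CPM and made up nearly all of the summed muscle signal at day 6 (42.9 and 38.7 CPM, against 4.5 and 4.46 CPM at day 3). Sox1, an early neural factor, rose 121-fold while the summed neural markers were at 112 and 113 CPM and then 98.3 and 94.2 CPM. Kdr, the VEGF receptor, rose 6.26-fold and the endothelial sum was 142 and 137 CPM against 150 and 144 CPM. Most of these markers were low, and limma on log2(TPM + 1) called 1 muscle, 0 neural and 2 endothelial markers higher and 1 adipocyte marker lower. Myog had no read on either day and Myod1 was under 0.02 CPM on average. Of 14 trophoblast and primitive endoderm markers 2 rose (Tfap2c and Elf5) and 4 fell, with Gata4 and Gata6 not called.

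Growth and housekeeping programs changed little by comparison. Of 37 replication and mitosis genes, Ccne1 and Orc1 rose (5.41%, against 9.26% of all genes) and none fell. Both were close to the minimum, and neither was called with the 4 compared libraries alone (0.99 each). DESeq2 called Orc1 but not Ccne1. Ccne1, cyclin E, went from 32.3 and 32.1 CPM to 67.0 and 64.0 CPM and Orc1, of the origin recognition complex, from a mean of 10.2 CPM to 20.8 CPM. Their log2 fold changes of 1.02 and 1.03 slipped under 1 without day 6 replicate 1 (Ccne1, 0.98), without day 3 replicate 1 (Orc1, 0.94) or without day 6 replicate 2 (Orc1, 0.97). The median of the list was 0.28. Of 24 p53 and Cdk inhibitor genes 4 fell (16.7%, against 10.2% of all genes) and 1 rose (4.17%, against 9.26%). Cdkn1a (p21) was at 317 and 299 CPM and then 221 and 221 CPM, and Cdkn2a at 65.2 and 62.8 CPM and then 69.0 and 71.2 CPM; neither was called. Cdkn1c, an imprinted inhibitor, fell from 46.1 and 45.2 CPM to 6.26 and 7.17 CPM, and Cdkn2d from 35.4 and 31.7 CPM to 13.8 and 15.7 CPM. Pmaip1 (Noxa), a pro-apoptotic p53 target, rose from 8.72 and 7.72 CPM to 22.1 and 22.4 CPM.

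In metabolism, 7 of 17 genes of serine, glycine and threonine use rose (41.2%, against 9.26% of all genes) and none fell, with a median of 0.51. Besides Tdh, these included Gldc, which cleaves glycine into folate units (0.511 and 0.443 CPM against 15.8 and 13.8 CPM, 30.7-fold), and Mthfd1, of the folate cycle (102 and 102 CPM against 405 and 393 CPM). Of 21 glycolysis genes 4 rose (19%, against 9.26% of all genes) and 1 fell (4.76%, against 10.2%). Slc2a3, a glucose transporter, rose from 169 and 169 CPM to 457 and 449 CPM, Aldoc from 14.1 and 12.8 CPM to 50.4 and 50.4 CPM and Hk2, hexokinase, from 65.2 and 64.0 CPM to 159 and 157 CPM, while Pfkp fell from 59.2 and 57.7 CPM to 26.2 and 23.7 CPM. limma on log2(TPM + 1) called 2 glycolysis genes higher. None of 23 cholesterol synthesis genes and none of 13 mitochondrially encoded genes was called by edgeR, DESeq2 or limma, although in edgeR without the fold change minimum 14 and 9 of them were higher and 6 and 1 lower. Of 28 nuclear subunits of oxidative phosphorylation, 1 (Cox7a1, under 1 CPM) rose, a share of 3.57%.

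Chromatin genes rose in few cases. The shares were 13.3% of DNA methylation genes and 5.88% of Polycomb and chromatin regulators, against 9.26% of all genes. Of 15 DNA methylation genes 2 rose: Dnmt3b, a de novo methyltransferase, from 10.1 and 11.1 CPM to 30.8 and 32.6 CPM, and Tet1, which oxidises methylcytosine, from 8.08 and 9.13 CPM to 51.4 and 46.6 CPM (5.71-fold, edgeR adjusted p = 1.3e-12). Of 34 Polycomb and chromatin regulators Ezh2 (68.0 and 66.4 CPM against 141 and 135 CPM) and Jarid2 (52.7 and 55.1 CPM against 114 and 115 CPM) rose, by 2.06-fold and 2.13-fold. Without TMM, 4 methylation genes and 7 Polycomb and chromatin genes were higher, and limma on log2(TPM + 1) called 4 methylation genes. Of all genes, 10.1% were higher without TMM. Without day 3 replicate 2 (7.98% of all genes higher) or day 6 replicate 2 (7.91%) the Polycomb count was 4.

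Among receptors and feedback genes of LIF, Wnt and FGF signalling, 10 of 32 fell (31.2%, against 10.2% of all genes) and 2 rose (6.25%, against 9.26%). Socs3, the feedback inhibitor of the LIF and Stat3 pathway, fell from 961 and 852 CPM to 123 and 129 CPM (7.21 times lower). Both groups grew in medium with LIF, and the cause of the fall was not tested. Socs2 rose from 14.6 and 14.1 CPM to 101 and 100 CPM. Lifr and Il6st, the receptor chains, were not called. Fgf2 fell from 17.4 and 17.6 CPM to 1.29 and 1.36 CPM, Dkk2, a Wnt antagonist, from 6.03 and 6.06 CPM to 0.323 and 0.454 CPM, and Tcf7, a Wnt effector, rose from 0.646 and 0.591 CPM to 5.44 and 5.54 CPM. limma on log2(TPM + 1) called 4 lower and 1 higher. Of 37 Hox genes tested out of 39, 13 fell (35.1%) and 2 rose (5.41%), with a median of -0.52 (-0.79 adjusted for low reads). Hox genes overlap antisense transcripts, and whether counting used strand is not given in the sources used here. Hoxc8 fell from 52.8 and 54.8 CPM to 10.2 and 11 CPM, Hoxb8 from 8.37 and 6.92 CPM to 1.5 and 1.36 CPM, and Hoxc6 from 29.0 and 28.8 CPM to 7.0 and 8.59 CPM. The 2 that rose, Hoxd9 and Hoxd11, are from the posterior HoxD cluster. Hoxd9, at 2.69 and 2.39 CPM and then 4.88 and 5.57 CPM, had a log2 fold change of 1.04 that was 0.94 without day 3 replicate 2 and 0.93 without day 6 replicate 2. limma on log2(TPM + 1) called 6 Hox genes lower and 0 higher.

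Of 24 imprinted genes 7 fell and 2 rose (median -0.27, or -0.32 adjusted for low reads). The shares were 29.2% lower and 8.33% higher, against 10.2% and 9.26% of all genes. Plagl1, an imprinted zinc finger gene, fell from 102 and 105 CPM to 21.5 and 22.5 CPM and Slc38a4, an amino acid transporter, from 87.3 and 92.4 CPM to 21.4 and 22.6 CPM. Peg10, a gene of retroviral origin, rose from 4.5 and 4.14 CPM to 14.8 and 14.9 CPM. Nnat went from 103 and 97.6 CPM to 197 and 204 CPM, and its log2 fold change of 1.00 fell below the minimum under DESeq2 (0.98) and without day 3 replicate 2 (0.96) or day 6 replicate 2 (0.97). limma on log2(TPM + 1) called 0 imprinted genes higher. Igf2 and H19, neighbours under shared imprinting control, had means of 1324 and 1032 CPM and of 7136 and 3697 CPM and were not called.

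**Figure D5:**
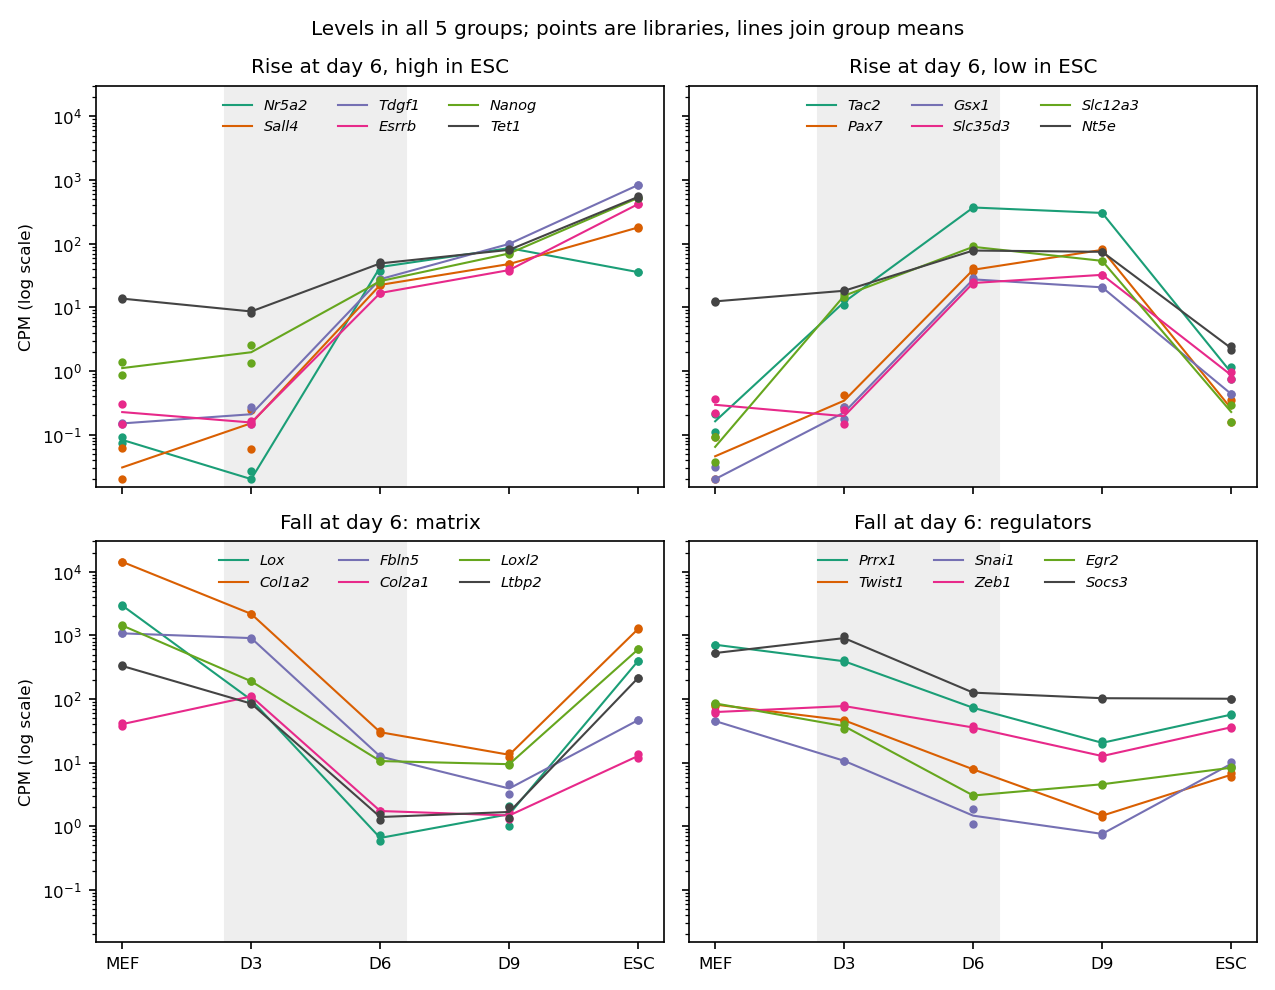
CPM on a log axis in MEF, day 3, day 6, day 9 and ESC libraries (points) with lines through group means, for 4 sets of 6 genes; values under 0.02 CPM are drawn at 0.02 and shading marks the compared days. Tdgf1 and Esrrb continue upward to ESC, Tac2 and Pax7 are highest at days 6 and 9, and Col1a2 and Lox are lower at day 6 than in every MEF, day 3 and ESC library.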

How the data were processed

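Polyadenylated RNA of 10 libraries (5 groups of 2, all of 1 sequencing batch per the labels) was read as single ends of 50 bases. The authors deposited transcript tables from Salmon 0.8.2 on mm10, per the submitters' processing notes, with an estimated count and a TPM for each of 109617 transcripts, per the file headers. Whether counting used strand is not given in the sources used here. Estimated counts were summed over 45706 genes and rounded. No other per-sample column was left unused (0). Gene coordinates are those of GENCODE M21 (GRCm38), and 98.8% of gene IDs matched.

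The model was edgeR 4.0.16 under R 4.3.3, with a mean per group over the 10 libraries, TMM scaling and its low-count filter (10 reads, 15 in total). In this fit the 5 groups share their estimate of the spread. A call needed p under 0.05 after Benjamini-Hochberg adjustment and a log2 fold change of 1 or more in size. Standard errors come from the quasi-likelihood F. An exact permutation test of 2 libraries against 2 cannot go below p = 0.333 (two-sided). A gene with 1 to 3 reads on a day has a ratio with an exact 95% interval that covers counting error only. On simulated counts for the 20165 genes of the comparison of days, edgeR called 45.5% of 101 genes changed 2-fold, 98% of 99 changed 4-fold and 11 unchanged genes. A 2-fold change lies at the minimum of the call, and without that minimum 78.2% of the 2-fold genes were called. The changed genes were drawn above a minimum of mean reads, so recovery of low genes was not measured. Far fewer genes were changed than were called between the days, so these values do not give the error of the real calls. The compared libraries held 31856543 to 37848659 reads.

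Named genes were the 12 largest rises and 12 largest falls among called protein-coding genes at 20 CPM or more without overlap of the days, a panel of 47 genes, and up to 3 genes each way per gene list at 5 CPM or more. Genes named outside this rule, mostly list members that were not called, were chosen after their values were seen. A few genes are not reported here. The groups, the 36 lists and the panel were chosen with earlier results of these data known. Promoters are RefSeq windows (GRCm38.p6) from 250 bases before to 50 after the start. Alternatives were DESeq2 1.42.0, scaling without TMM, no filter, a filter of 10 CPM in 2 libraries, limma 3.58.1 on log2(TPM + 1), no fold change minimum, the 4 compared libraries only, a replicate block, and each library left out.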

Additional observations from a re-analysis of the deposited data

Results flagged for a closer look

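The following values concern the share of a gene's reads that the deposited tables assign to a single annotated transcript, a quantity that the comparison of genes did not use. They were flagged because every library of the compared days lay more than 5 percentage points above every MEF and ESC library. Myc-202 took a mean of 83.5% of Myc reads at day 3 and 90.6% at day 6, whereas MEF had 4.2%, ESC 4.6% and day 9 90.3%. Klf4-003 took 14.9% of Klf4 reads at day 3 and 18.8% at day 6, whereas MEF had 5.4%, ESC 5.8% and day 9 17.2%.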

How the results depend on the processing

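The number of genes higher and lower at day 6 (1867 and 2059) moved most with a filter of 10 CPM in 2 libraries (806 and 1208), with limma on log2(TPM + 1) (586 and 815) and without the fold change minimum (5890 and 5497). The stricter filter tests fewer genes (11712), and limma on TPM shrinks the fold changes of low genes. Of the risers also higher in ESC than in MEF (1274), the same 3 settings gave 618, 352 and 4246. Of the fallers also lower in ESC (1422), limma gave 580 and no minimum gave 4259. Leaving out each library gave 1641 to 1687 higher and 1946 to 2000 lower genes, with the lone library of its day assumed to vary like the other groups. DESeq2 (1510 and 1932), scaling without TMM (2030 and 1916), no filter (2000 and 2204) and the 4 compared libraries alone (1570 and 1962) stayed within 1.5 times. Scaling without TMM moved the median over all genes from 0.03 to 0.10 on the log2 scale. The replicate block gave 1796 and 2015, shared 3791 of its 3811 calls with the 3926, changed the call of none of 136 named genes, and moved 2 of 72 list counts by 1 gene (interferon response and Hox genes lower, 13 to 12 each). Deviations of same-numbered libraries correlated at 0.022, so the numbers were not shown to pair the samples. limma on log2(TPM + 1) lost the call of 17 of 136 named genes and moved 28 of 72 list counts. The sign turned for Dnmt3l without day 3 replicate 1 (0.53) and without day 6 replicate 2 (0.61), against -4.04 without day 6 replicate 1, and for Klf4 under DESeq2, in the 4 libraries alone and without day 6 replicate 1 (-0.01 each). Neither gene was called under any of these; the cause was not tested.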

Other observations

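Some genes rose at day 6 but were low in both MEF and ESC. Of the 342 genes called higher at 20 CPM or more at day 6, 13 averaged under 1 CPM in both MEF and ESC: Tac2, Slc12a3, Nxpe2, Sez6, Trim9, Pax7, Stac, Cxcr4, Gsx1, Gm15987, BC064078, Slc35d3 and Ly6h. They were picked by these levels, which are given as a description. Low levels did not keep them out of the contrast of ESC with MEF. Tac2, Pax7, Gsx1, Slc35d3, Slc12a3, Sez6 and Gm15987 were called higher in ESC and belong to the 1274 risers of that class. Trim9 and Nxpe2 were called lower in ESC. Tac2, which encodes neurokinin B, stood at 13.5 and 10.8 CPM at day 3 and at 361 and 379 CPM at day 6, with means of 304 CPM at day 9, 0.162 CPM in MEF and 0.942 CPM in ESC. Slc12a3, the thiazide-sensitive sodium chloride cotransporter, stood at 14.3 and 16.1 CPM and then 85.5 and 92.9 CPM. Sez6, a membrane protein of neurons, stood at 4.82 and 4.82 CPM and then 47.7 and 48.5 CPM. Cxcr4, the receptor of the chemokine Cxcl12, stood at 13.1 and 11 CPM and then 27.7 and 29.4 CPM. The day 9 means were above the day 6 means for Pax7 (79.9 against 38.9 CPM), BC064078 (81.4 against 24.3 CPM), Slc35d3 (32.4 against 24.1 CPM) and Ly6h (28.7 against 22.8 CPM), and below them for the other 9.

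Some further genes were chosen after their values were seen, for their level. Cmah, the enzyme that makes N-glycolylneuraminic acid, stood at 90.3 and 97.3 CPM at day 3 and at 1320 and 1243 CPM at day 6, with 2420 CPM at day 9 and 789 CPM in ESC. Trh, the precursor of thyrotropin-releasing hormone, stood at 275 and 248 CPM and then 773 and 778 CPM.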
